A study of Mus musculus with 12 samples.

Results

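The ISG15 conjugation pathway was followed through 5 of its genes in mouse follicular (FO) B cells. They were chosen by name as the modifier Isg15, its E1 enzyme Uba7, its E2 enzyme Ube2l6, its ligase Herc6 and its protease Usp18. All 5 were found among the 22561 genes of the count table, and all 5 were among the 9431 genes that passed a filter on low counts. Ube2l6 passed it only through its samples with IFNα alone, so its calls in comparisons with that group were not independent of the filter. The cells were sorted from the spleen of 10-week-old C57BL6 mice, with 3 samples in each of 4 groups. They were either left unstimulated or stimulated for 12 h with IFNα, CpG, or both (CpG + IFNα). IFNα is a type I interferon, and CpG is a synthetic DNA sensed by TLR9. The sort took mature B cells that carried CD23 and an intermediate level of CD21. No source used here says whether the samples came from separate mice or whether the unstimulated cells were also kept in culture, so the p-values measure the spread between these samples, and an effect of 12 h of culture cannot be told apart from that of a stimulus against unstimulated cells.

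ISG15 is a small ubiquitin-like protein that is attached to other proteins. UBA7 activates it, UBE2L6 carries it, and HERC6 is the main ligase that attaches it in the mouse. USP18 removes ISG15 from its targets and, apart from that activity, sits at the type I interferon receptor and dampens its signal. Genes of this pathway are classical interferon-stimulated genes, switched on from the receptor through factors that bind the interferon-stimulated response element (ISRE).

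The RNA was read near the 3′ end with unique molecular identifiers (UMIs), so that 1 count stood for 1 captured transcript whatever its length. The total was between 922450 and 2923865 counts per sample, and no pair of replicates was alike within counting noise (the chi-square statistic divided by its degrees of freedom was at least 1.9). Levels are given as normalized CPM, that is, CPM after TMM normalization. They are relative to the rest of a sample's RNA, and the total RNA per cell was not measured. A gene was called up- or down-regulated when its log2 fold change exceeded 1 in either direction with an adjusted p below 0.1. All 7 B cell markers checked were detected in every group, and their summed level was between 6370 and 8350 normalized CPM without CpG and between 1150 and 1440 with CpG. Of the T cell markers Cd3g and Cd8a were at 0, and the summed level of this list was at most 3.64 normalized CPM. The myeloid list was between 5.29 and 24.6 in unstimulated cells, 6.69 and 13 with IFNα and at most 3 in both groups with CpG. The list of plasmacytoid dendritic cell markers, in which Siglech and Klk1 were at 0, was between 1.82 and 7.49 in unstimulated cells, 8.39 and 10.1 with IFNα, 6.42 and 19.6 with CpG and 20 and 22.1 with CpG + IFNα. The erythroid list was between 57.4 and 345 in unstimulated cells, 15.3 and 336 with IFNα and at most 72 in the groups with CpG, and the plasma cell list was between 255 and 380 in unstimulated cells, 181 and 210 with IFNα, 186 and 205 with CpG and 200 and 271 with CpG + IFNα. In bulk RNA, fewer cells that express a gene and less of its RNA per cell cannot be told apart.

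Isg15 lies on the minus strand of chromosome 4 (156199424 to 156200818, GRCm38), Uba7 on the plus strand of chromosome 9 (107975505 to 107984060) and Ube2l6 on the plus strand of chromosome 2 (84798828 to 84810335). Herc6 (57581000 to 57664632) and Usp18 (121245906 to 121270917) both lie on the plus strand of chromosome 6. RefSeq promoter windows of GRCm38.p6, from 250 bases before to 50 bases after the start, were at hand for Isg15, Uba7, Ube2l6 and Herc6. Those of Isg15 and Uba7 are printed 5′ to 3′, because they hold the matches found and because these genes responded to IFNα most and least. Capitals mark the motif searched on both strands, the half-site AANNGAAA of interferon regulatory factors, which an ISRE holds in close repeat.
Isg15 (chr4:156200769-156201068, minus strand): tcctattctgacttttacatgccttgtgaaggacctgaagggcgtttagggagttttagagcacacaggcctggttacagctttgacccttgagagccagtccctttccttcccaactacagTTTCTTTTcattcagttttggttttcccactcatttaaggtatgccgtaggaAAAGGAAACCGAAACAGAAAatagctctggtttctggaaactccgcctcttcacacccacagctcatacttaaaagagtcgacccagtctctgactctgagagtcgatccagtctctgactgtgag
Uba7 (chr9:107975317-107975616, plus strand): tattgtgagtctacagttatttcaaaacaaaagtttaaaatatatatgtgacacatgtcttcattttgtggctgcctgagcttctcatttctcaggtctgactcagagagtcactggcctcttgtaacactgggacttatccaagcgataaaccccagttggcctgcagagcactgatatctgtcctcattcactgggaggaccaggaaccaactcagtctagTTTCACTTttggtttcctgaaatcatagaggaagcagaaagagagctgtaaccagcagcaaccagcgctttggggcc
The Isg15 window held 3 overlapping half-sites on the strand of the gene, which began 76, 70 and 64 bases upstream of the start, and 1 on the opposite strand that began 128 bases upstream. The Uba7 window held 1, on the opposite strand, 27 bases upstream. These letters did not occur in the windows of Ube2l6 and Herc6. Among 32851 promoter windows, 23.9% held the half-site and 0.609% held at least 3 on the same strand. These matches describe letters and not binding.

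IFNα alone raised all 5 transcripts. Isg15 was at 20, 8.56 and 23.8 normalized CPM in unstimulated cells and at 661, 462 and 687 with IFNα. Its log2 fold change was 5.06 ± 0.20 (SE, n = 3 per group, adjusted p = 4.92e-20), a 33.4-fold increase. Usp18 had almost the same levels as Isg15 before stimulation (20.9, 8.56 and 23.8) and reached 536, 445 and 565, with a log2 fold change of 4.81 ± 0.20 (adjusted p = 1.52e-19). The transcripts of the modifier and of the protease that removes it thus rose by a like amount from a like level.

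Transcripts of the 3 conjugating enzymes had smaller fold increases, and the differences between genes were not tested. Herc6 went from 12.7, 18.2 and 23.8 normalized CPM to 238, 224 and 219, a log2 fold change of 3.63 ± 0.17 (adjusted p = 6.86e-18). Ube2l6 went from 6.37, 4.28 and 3.53 to 36.3, 43.8 and 55.7, a log2 fold change of 3.25 ± 0.34 (adjusted p = 3.56e-09). Both were low before stimulation. Uba7 was by contrast the most abundant of the 5 transcripts in unstimulated cells, at 53.7, 72.7 and 76.8 normalized CPM. It reached only 111, 161 and 145 with IFNα, a log2 fold change of 1.05 ± 0.16 (adjusted p = 5.28e-06) that lay just beyond the threshold. The call of Uba7 was lost without unstimulated replicate 1 (log2 fold change 0.91) and without IFNα replicate 2 (0.94). All 5 genes were up-regulated in a comparison in which 4.56% of all genes tested were, and the median log2 fold change was 3.63 over the 5 and 0 over all genes. Among them, Ube2l6 had passed the filter on low counts only through these IFNα samples. Of the 7 B cell markers, 2 fell with IFNα, Fcer2a (CD23) from 1230 ± 196 to 244 ± 54 normalized CPM (SD, n = 3) and Cr2 (CD21) from 412 ± 57.1 to 81.5 ± 21.7, with log2 fold changes of -2.34 ± 0.14 (adjusted p = 2.67e-15) and -2.38 ± 0.17 (adjusted p = 4.85e-13). Of the plasmacytoid dendritic cell markers Cox6a2 rose (log2 fold change 3.30 ± 1.06, adjusted p = 0.0247), from 0.357 ± 0.618 to 4.02 ± 1.39 normalized CPM, while Ccr9, too low to be tested, was at 4.22 ± 2.31 and 5.18 ± 1.44. Of 6 myeloid markers in the table, all too low to be tested, Adgre1 was at 1.67 ± 1.34 and 9.24 ± 3.3, whereas Lyz2, Csf1r, Itgam, Cd14 and S100a8 were at 0.303 to 5.3 in unstimulated cells and at 0 with IFNα. Of 3 plasma cell markers tested Irf4 fell (log2 fold change -1.10 ± 0.16, adjusted p = 3.4e-06), from 188 ± 62.2 to 88.3 ± 6.48 normalized CPM. Their part in the result was not tested.

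**Figure D1:**
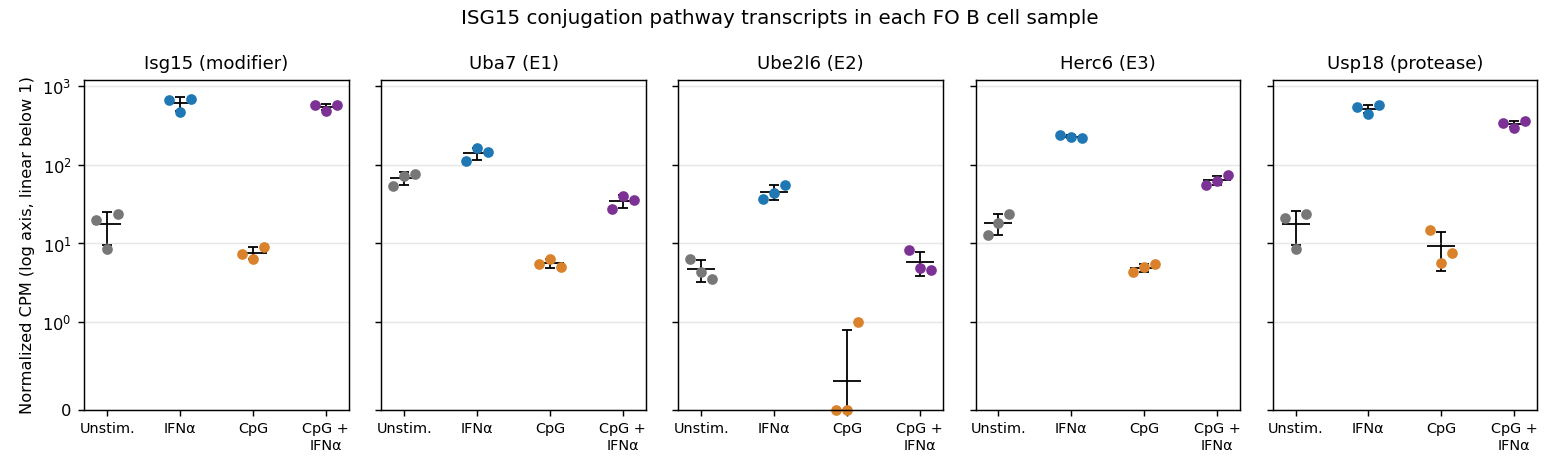
Normalized CPM of each gene (y axis, logarithmic above 1 and linear below) in the 3 samples of each condition (points), with the group mean and SD (bars). Uba7 started highest and changed least with IFNα, and Ube2l6 had no count in 2 of 3 CpG samples.

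CpG alone went with lower levels of the pathway's genes. Uba7 fell from between 53.7 and 76.8 normalized CPM to 5.53, 6.42 and 4.99, a log2 fold change of -3.58 ± 0.26 (adjusted p = 6.01e-14), so that the most abundant transcript of unstimulated cells became 12-fold lower. Herc6 fell to 4.3, 4.99 and 5.49 (log2 fold change -1.87 ± 0.32, adjusted p = 4.36e-06). Ube2l6 was nearly lost, with 0, 0 and 2 counts in the CpG samples against 7, 4 and 4 in the unstimulated samples. The 15 counts against 2 gave a ratio of 11.9 after normalization, with an exact 95% interval from 2.77 to 107 that covers counting error only (log2 fold change -3.34 ± 0.81, adjusted p = 0.000483). Without CpG replicate 3 the CpG samples held no count of Ube2l6, and the fitted value of -5.87 then depended on the prior count.

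Isg15 and Usp18 had log2 fold changes of smaller size with CpG, and their groups overlapped with the unstimulated ones. The differences between genes were not tested. Isg15 was at 7.37, 6.42 and 8.99 normalized CPM, which unstimulated replicate 2 shared at 8.56 (log2 fold change -1.21 ± 0.35, adjusted p = 0.00319). Its call was lost without unstimulated replicate 3 (log2 fold change -0.94). Usp18 was at 14.7, 5.7 and 7.49 with CpG and was not called (log2 fold change -0.96 ± 0.34, adjusted p = 0.0121), although it was without unstimulated replicate 2 (-1.23) or CpG replicate 1 (-1.40). It was also called with upper-quartile factors (-1.07) and with a stricter filter on low counts (-1.02). In all, 4 of the 5 genes were down-regulated, where 25.5% of all genes tested were. Of the erythroid markers all 4 that were tested were down-regulated as well, with a summed level of 57.4 to 345 normalized CPM in unstimulated cells and 4.99 to 60.8 with CpG, while Cox6a2 was up-regulated (4.61 ± 0.84, adjusted p = 1.31e-05) and Ccr9 was at 4.22 ± 2.31 normalized CPM in unstimulated cells and 2.09 ± 1.23 with CpG. Of the 3 plasma cell markers Sdc1 was down-regulated (-3.37 ± 0.43, adjusted p = 2.26e-08). Markers of B cells moved the same way, since 6 of the 7 were down-regulated by CpG, with a summed level of 7230 to 8350 normalized CPM in unstimulated cells and 1310 to 1440 with CpG, and their part in the result was not tested.

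When IFNα was given with CpG, all 5 genes were again up-regulated over CpG alone, where 2.95% of all genes tested were. Isg15 rose to 578, 483 and 574 normalized CPM (log2 fold change 6.12 ± 0.21, adjusted p = 3.66e-21) and ranked at position 4 of all genes tested by p. Usp18 rose to 338, 295 and 356 (5.13 ± 0.21, adjusted p = 1.33e-19), and Herc6 to 55.6, 61.8 and 73 (3.65 ± 0.23, adjusted p = 8.85e-15). Uba7 reached 27.3, 40 and 35.5, a log2 fold change of 2.63 ± 0.27 (adjusted p = 2.13e-09). Ube2l6 reached 8.18, 4.83 and 4.63, from 15, 14 and 9 counts. Its 38 counts against 2 gave a ratio of 14.3 (exact 95% interval 3.7 to 123, counting error only), beside a fitted log2 fold change of 3.61 ± 0.69 (adjusted p = 0.00026), which was 6.16 without CpG replicate 3. The median log2 fold change of the 5 was 3.65, against -0.04 over all genes. This comparison shares no sample with that of IFNα against unstimulated cells, in which the same 5 genes rose, but both came from the same fit. Deviations of same-numbered samples of the stimulated groups had r from 0.009 to 0.201, so these comparisons may not be independent. Fcer2a and Cr2 fell again, with log2 fold changes of -1.41 ± 0.29 (adjusted p = 0.000668) and -1.28 ± 0.27 (adjusted p = 0.000745), and Cox6a2 was not called (0.92 ± 0.32, adjusted p = 0.0565). Their part in the result was not tested.

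Under the combined stimulus the transcripts of the enzymes stayed below their level with IFNα alone, whereas that of the modifier was near it. With CpG + IFNα, Isg15 differed from IFNα alone by a log2 fold change of only -0.14 ± 0.13 (adjusted p = 0.329), with a 95% interval from -0.41 to 0.12. Usp18 was lower by 0.64 ± 0.13 on the log2 scale (adjusted p = 6.28e-05), short of the fold threshold. Uba7 (log2 fold change -2.01 ± 0.16, adjusted p = 4.13e-13), Ube2l6 (-2.98 ± 0.28, adjusted p = 2.68e-11) and Herc6 (-1.84 ± 0.13, adjusted p = 1.67e-14) were down-regulated. Transcripts of the enzymes of the E1, E2 and E3 steps were 4.03-, 7.87- and 3.57-fold lower than with IFNα alone. Of all genes tested, 25.5% were down-regulated in this comparison, and the differences between the 5 genes' own values were not tested. Of the markers, 6 of 7 of B cells and 3 of 4 erythroid ones (1 of 4 by DESeq2) were down-regulated as well, as was Sdc1 (-4.56 ± 0.40). Cox6a2 (2.23 ± 0.41) and Irf4 were by contrast up-regulated. Ccr9 was at 5.18 ± 1.44 normalized CPM with IFNα and 2.92 ± 1.48 with CpG + IFNα. Their part in the result was not tested.

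**Figure D2:**
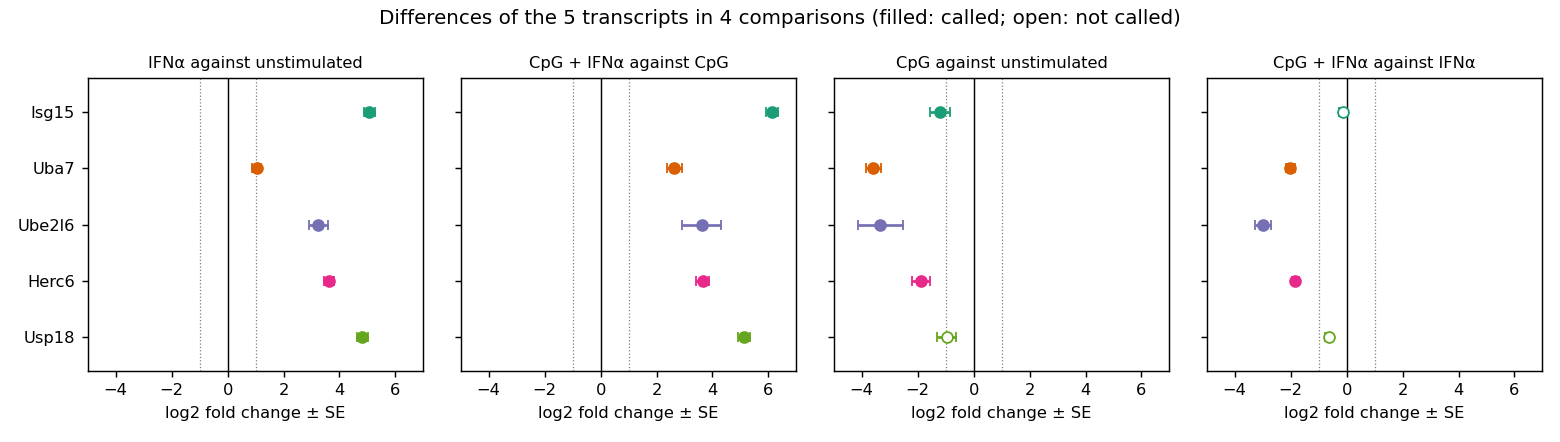
Log2 fold change (x axis, with its SE) of each gene in 4 comparisons, where filled points passed both thresholds, open points did not, and dotted lines mark a log2 fold change of 1 in size. IFNα raised all 5 genes with and without CpG, whereas CpG + IFNα against IFNα left Isg15 near 0 and put Uba7, Ube2l6 and Herc6 between -1.84 and -2.98.

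Against unstimulated cells, CpG + IFNα left the 5 genes at different ends. Isg15 (log2 fold change 4.92, adjusted p = 2.38e-20), Usp18 (4.17, adjusted p = 2.22e-18) and Herc6 (1.79, adjusted p = 8.28e-10) were up-regulated, as were 20.3% of all genes tested. Ube2l6 was close to its unstimulated level (log2 fold change 0.27 ± 0.46, adjusted p = 0.609, 95% interval -0.66 to 1.20). Uba7 was lower than in unstimulated cells in every sample, with a log2 fold change of -0.96 ± 0.18 (adjusted p = 1.74e-05) that did not reach the fold threshold, where 25.6% of all genes tested were down-regulated. It did so without unstimulated replicate 1 (-1.09) or CpG + IFNα replicate 2 (-1.08), with upper-quartile factors (-1.09) and with the stricter filter (-1.01). When the 2 single stimuli were compared, all 5 genes were up-regulated in IFNα over CpG, with log2 fold changes from 4.64 for Uba7 to 6.59 for Ube2l6, where 24.7% of all genes tested were. The value of Ube2l6 rested on 181 counts against 2, a ratio of 115 (exact 95% interval 31.5 to 961, counting error only), and was 9.12 without CpG replicate 3. Here too, Ube2l6 had passed the filter only through the IFNα samples. Of the markers, 6 of 7 of B cells and 4 of 4 erythroid ones (2 of 4 by DESeq2) were up-regulated in IFNα over CpG. The same numbers were down-regulated in CpG + IFNα against unstimulated cells. Cox6a2 moved the opposite way, with log2 fold changes of -1.30 ± 0.47 (adjusted p = 0.0138) and 5.53 ± 0.72 (adjusted p = 3.34e-08), while Ccr9 was at 5.18 ± 1.44 normalized CPM with IFNα against 2.09 ± 1.23 with CpG, and at 2.92 ± 1.48 with both stimuli against 4.22 ± 2.31 with none. Of 3 plasma cell markers Sdc1 was up-regulated in the first (3.84 ± 0.39) and down-regulated in the second (-4.09 ± 0.44), in which Xbp1 was down-regulated too. The part of these markers in the result was not tested. The comparisons with a common group share its samples and are not independent of each other.

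The order of levels followed from this. IFNα was highest for every gene, although for Isg15 it did not differ from CpG + IFNα beyond the spread. CpG was lowest for every gene, although for Usp18 and Isg15 it overlapped with unstimulated cells. For Herc6 and Usp18, CpG + IFNα lay above unstimulated cells. For Uba7 it lay below them, and for Ube2l6 these groups were not separated.

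The interaction asked whether IFNα had another effect with CpG than without. It was positive for Uba7 (1.57 ± 0.33 on the log2 scale, adjusted p = 0.00149) and for Isg15 (1.06 ± 0.38, adjusted p = 0.0737), that is, both rose more in fold from the lower level under CpG. Both passed the thresholds, which 3.09% of all genes did upwards and 3.17% downwards. The call of Isg15, for which unstimulated and CpG samples held 57 and 39 counts in all, was lost without any 1 of 6 samples, and its log2 value was lowest without unstimulated replicate 3 (0.84, adjusted p = 0.291). The other samples were unstimulated replicate 1, IFNα replicate 2, CpG replicates 1 and 2, and CpG + IFNα replicate 3. The interaction was not called for Herc6 (0.03, adjusted p = 0.965), Usp18 (0.32, 95% interval -0.41 to 1.04) and Ube2l6 (0.36, -1.03 to 1.75), of which the last could hold a large difference in either direction. An SE derived from the test statistic can be too small where the value is near 0. No interval is therefore given for Herc6, and that of Ube2l6 may be too narrow. Among the markers it was called upwards for Irf4 (1.58 ± 0.22) and Cr2 (1.09 ± 0.33) and downwards for Cd79b. By DESeq2 it was called for 0 of the 7 B cell markers, and so not for Cr2 and Cd79b. The part of these markers in the result was not tested.

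The composition of the pathway's transcripts changed with these levels. The 5 genes summed to 126 ± 22.4 normalized CPM (SD, n = 3) in unstimulated cells and to 1530 ± 174 with IFNα. The sum was 27.8 ± 4.2 with CpG and 978 ± 83.2 under the combined stimulus. Uba7 made up 54.2% ± 9.32 of their counts in unstimulated cells, 20.8% ± 5.6 with CpG, 9.24% ± 2.55 with IFNα and 3.54% ± 0.918 with CpG + IFNα. Isg15 went from 13.6% ± 5.3 to 27.5% ± 4.54 with CpG, 39.1% ± 3.98 with IFNα and 55.7% ± 1.5 with CpG + IFNα, and the groups with IFNα did not overlap. Usp18 made up 13.9% ± 5.61 in unstimulated cells, 32.4% ± 12 with CpG, 33.7% ± 0.288 with IFNα and 33.7% ± 0.429 with CpG + IFNα. With IFNα and with CpG + IFNα, the share of Herc6 was 15% ± 1.85 and 6.5% ± 0.848, and that of Ube2l6 was 2.97% ± 0.584 and 0.601% ± 0.19.

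**Figure D3:**
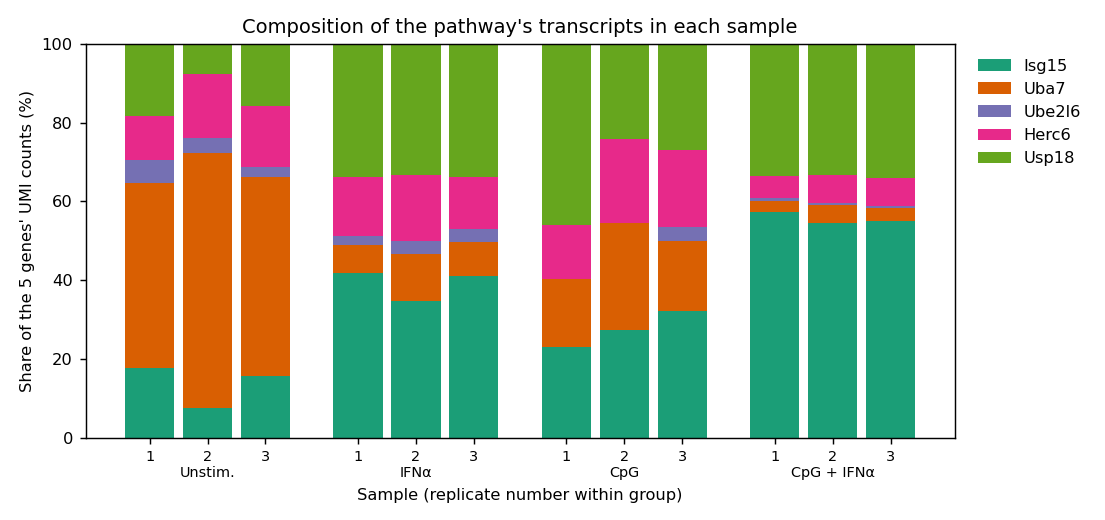
Share of each gene in the UMI counts of the 5 genes (y axis, percent) in each of the 12 samples, grouped by condition. Uba7 was the main transcript in unstimulated cells, Isg15 and Usp18 made up most of the counts with IFNα, and Isg15 alone passed 54% in all 3 samples with CpG + IFNα.

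Ratios within a sample, which do not depend on normalization, showed the same shifts. There were 2.68, 8.5 and 3.22 Uba7 counts per Isg15 count in unstimulated cells. The ratio was 0.168, 0.348 and 0.211 with IFNα and 0.0472, 0.0829 and 0.0618 with CpG + IFNα. Transcripts of the E1 enzyme were thus outnumbered most by those of its modifier under the combined stimulus. Isg15 per Usp18 was between 0.957 and 1 in unstimulated cells, between 1.04 and 1.23 with IFNα and between 1.61 and 1.71 with CpG + IFNα. Herc6 per Usp18 was between 0.388 and 0.504 with IFNα and between 0.165 and 0.21 with CpG + IFNα. With CpG alone, Isg15 per Usp18 spread from 0.5 to 1.2, on 8 to 24 counts of each gene per sample.

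Related enzymes of ubiquitin and of other modifiers were counted in the same comparisons. Of all genes tested, 4.56% were called higher and 4.07% lower with IFNα against unstimulated cells, and 2.95% higher and 2.01% lower with CpG + IFNα against CpG. At these shares, few or no calls in a short list are near the background. Of 8 other E1 enzymes tested, 0 were called in either direction with IFNα against unstimulated cells or with CpG + IFNα against CpG by edgeR or by DESeq2, and 2 and 1 had an unadjusted p under 0.05. Uba1, the main E1 of ubiquitin, had log2 fold changes of -0.08 ± 0.13 and -0.12 ± 0.11 in these comparisons. Of 29 other E2 enzymes, 1 was called lower with IFNα (Ube2s, which works with the anaphase-promoting complex, -1.40 ± 0.38, adjusted p = 0.00796), where DESeq2 called 2 lower and 8 had an unadjusted p under 0.05. With IFNα on top of CpG, 0 were called by edgeR or DESeq2, and again 8 had an unadjusted p under 0.05. Ube2l3, the closest relative of Ube2l6, had log2 fold changes of 0.13 ± 0.13 and 0.02 ± 0.11. Of 17 genes for ubiquitin and other ubiquitin-like modifiers, 0 were called in either comparison by edgeR or DESeq2, and 3 and 4 had an unadjusted p under 0.05. The median log2 fold change of each of these lists lay between -0.20 and 0.09 in both comparisons, beside 0 and -0.04 over all genes. Among 4 other HERC genes, Herc3 was up-regulated by IFNα alone (1.16 ± 0.24, adjusted p = 0.000406) and had 0.26 ± 0.40 on top of CpG (adjusted p = 0.770), with a difference between these effects that was not called (interaction -0.90 ± 0.49, adjusted p = 0.276), and Herc4 had -0.06 ± 0.15 and -0.01 ± 0.16.

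Of 6 other reported ISG15 ligases and proteases, Trim25, a ubiquitin and ISG15 ligase of the RIG-I pathway, was the 1 called in both comparisons. It went from 90.1 ± 9.47 normalized CPM (SD, n = 3) to 231 ± 19.3 with IFNα, a log2 fold change of 1.35 ± 0.13 (adjusted p = 2.26e-10), and from 42.8 ± 3.86 with CpG to 116 ± 10 with CpG + IFNα (1.44 ± 0.13, adjusted p = 3.18e-10). Arih1, another ligase, had -0.04 ± 0.14 and 0.09 ± 0.11 on the log2 scale. Of 15 genes for reported ISG15 substrates, 6 were called higher and 0 lower in each comparison, beside 4.56% and 2.95% of all genes called higher. Among those with the smallest p were genes for antiviral proteins. Their log2 fold changes with IFNα were 5.05 for Ifit1, 4.95 for Mx1, 3.53 for Eif2ak2 and 2.34 for Ddx58, and on top of CpG they were 5.05, 5.70, 3.04 and 3.73. The other 9 did not pass, so that the median of the list was 0.14 and 0.19.

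**Figure D4:**
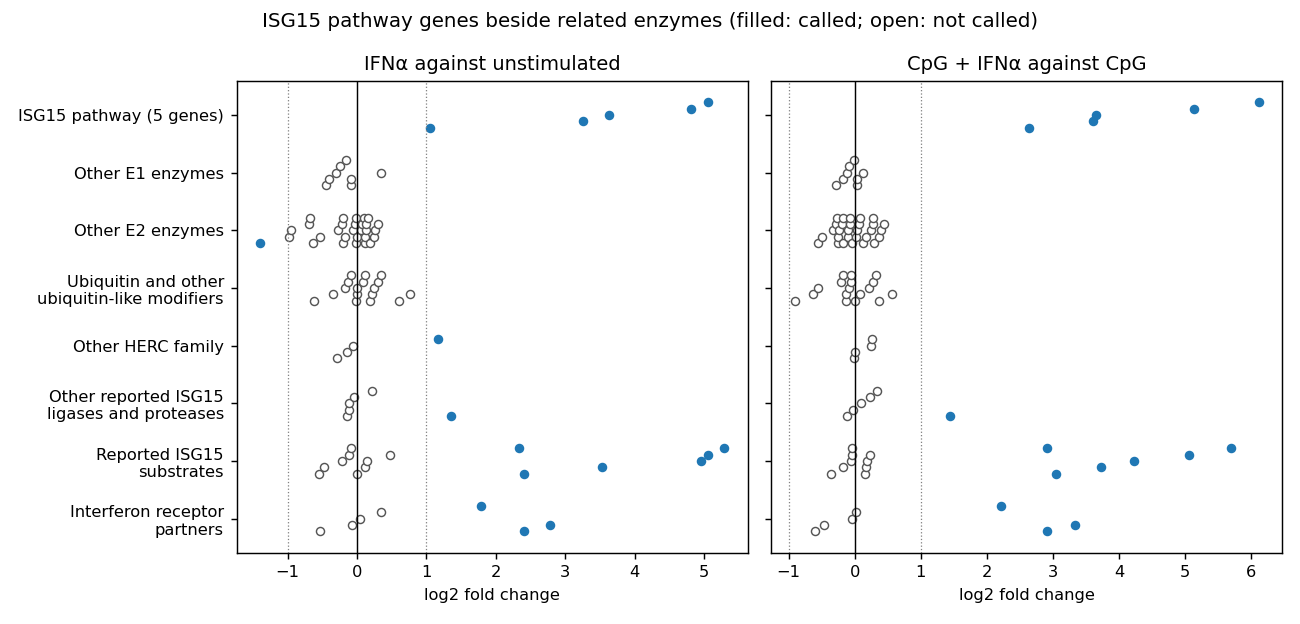
Log2 fold change (x axis) of every tested gene of each list (points, spread vertically for legibility) with IFNα against unstimulated cells and with CpG + IFNα against CpG. Filled points passed both thresholds, and all 5 pathway genes lie above 1 in both panels while the other E1 enzymes and ubiquitin-like modifiers lie within 1 of 0.

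USP18 acts at the receptor that drives the pathway, and some genes of this receptor and its signal were compared with the pathway. With IFNα, Stat2 (log2 fold change 2.78 ± 0.14, adjusted p = 1.86e-17) and Irf9 (1.78 ± 0.13, adjusted p = 7.05e-13) were up-regulated. On top of CpG they were as well, with Stat2 at 3.33 ± 0.23 (adjusted p = 1.22e-13) and Irf9 at 2.21 ± 0.14 (adjusted p = 3.28e-14). Stat2, which also anchors USP18 at the receptor, went from 69.4 ± 13.4 normalized CPM in unstimulated cells to 478 ± 70 with IFNα. It was at 6.19 ± 1.03 with CpG and at 62.6 ± 5.58 when both were given. Its groups were thus ordered like those of Uba7, with CpG + IFNα near or under the unstimulated level. With CpG against unstimulated cells, 6 of the 7 genes of this list were down-regulated, beside 25.5% of all genes tested, among them Ifnar1 (log2 fold change -1.33 ± 0.23, adjusted p = 4.51e-06), Jak1 (-1.46 ± 0.12, adjusted p = 2.89e-12) and Tyk2 (-1.59 ± 0.20, adjusted p = 1.41e-08). The exception was Ifnar2, which USP18 binds (-0.07 ± 0.21, adjusted p = 0.769). Of 17 type I interferon genes listed, 2 were in the table, with 1 count in all in a single IFNα sample. The genes of the receptor for free ISG15, Itgal and Itgb2, were not called in either comparison with IFNα by edgeR or DESeq2, although 2 and 1 of them had an unadjusted p under 0.05. With IFNα the log2 fold change was -0.94 ± 0.19 for Itgb2 (adjusted p = 0.000359), from 88.2 ± 16.4 to 45.4 ± 9.72 normalized CPM, and -0.57 ± 0.15 for Itgal (adjusted p = 0.00703). On top of CpG it was -0.52 ± 0.20 (adjusted p = 0.0996) and -0.13 ± 0.13 (adjusted p = 0.625).

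The pattern most like each gene was sought among all genes tested by Pearson's r of log2(normalized CPM + 1) over the 12 samples, which share the 4 conditions. Isg15 was closest to Ifi35 (r = 0.994), Ifitm3 and Lgals9 (both 0.987), and Usp18 to Ifit1, Ifi35 and Phf11b (0.989 each). Herc6 was closest to Igtp (0.995), Trafd1 and Ifi47 (both 0.994), and Uba7 to Shisa5 (0.991), Sp100 (0.985) and Tap2 (0.981). Ube2l6 was closest to H2-T24 (0.977), Cmpk2 (0.976) and Ifi209 (0.975), but with a pseudocount of 4 these ranked 14, 13 and 32. By Spearman's rho the order changed for every gene, as Ifi35 ranked 107 for Isg15 and 189 for Usp18, Shisa5 ranked 81 for Uba7, Igtp ranked 32 for Herc6 and Cmpk2 ranked 79 for Ube2l6. Within the pathway, r was 0.992 between Isg15 and Usp18 and 0.607 between Isg15 and Uba7, while Uba7 and Ube2l6 had 0.888.

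Copies and overlapping genes were checked for counts of their own. Isg15 has a processed pseudogene, Gm9706, with 95.2% identity over 482 bases. It held 72 counts in unstimulated cells and 56 with IFNα, against 11 and 10 in the groups with CpG alone and with both, and so was not raised with Isg15 in the raw counts. Gm20661 shares 233 exonic bases with Uba7 on the same strand and had 2 counts in all, both in unstimulated cells. Gm44148 shares 124 exonic bases with Usp18 on the opposite strand and had 5 counts with IFNα and 2 with CpG + IFNα. Whether the counting used strand was not given in the sources used here, so reads of Usp18 and Gm44148 cannot be told apart. Gm45193 overlaps Herc6 on the same strand and was not analysed here. Parts of the Ube2l6 transcript, of 224 to 508 bases, match other transcripts at 90.6% to 96.5% identity, so its counts are uncertain.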

How the data were processed

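RNA of the 12 samples was made into libraries by bulk RNA barcoding (BRB) sequencing. The table the authors deposited holds raw UMI counts for each gene and sample. Per the labels and the paper's methods, reads were processed with UMI-tools 1.1.2, Trim Galore 0.6.7, HISAT2 2.2.1 on GRCm38 and featureCounts 2.0.1, the tool versions being those of the submitters' processing notes. Isg15 and Usp18 were among genes that the study chose from these samples for qPCR. A list of sample barcodes was read for its sample names only and was not used in the tests.

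These counts were analysed in R 4.3.3 with edgeR 4.0.16. Of 22561 genes, 2220 had no count and 9431 passed filterByExpr by group. After TMM normalization they were tested by glmQLFit and glmQLFTest, all 4 groups being fitted together (8 residual degrees of freedom). Adjusted p-values are Benjamini-Hochberg values over all genes tested, and errors of log2 fold changes are SEs derived from the test statistic. The interaction subtracts IFNα against unstimulated from CpG + IFNα against CpG. Depth was between 922450 and 2923865 counts per sample, and 3 counts per sample was taken as the limit of detection. UMIs remove PCR duplicates, so intervals on counts cover counting error only.

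The members, the related lists and the tests were chosen with earlier results of these data known. The 5 members are always named. From the other lists, genes called in IFNα against unstimulated or CpG + IFNα against CpG are named (the 5 with the smallest p where there were more), with some close relatives fixed by name, and for each member the 3 genes most alike in pattern. Positions of genes came from GENCODE M21, and promoter sequences from RefSeq. Pseudogenes and copies were sought by aligning the members' transcripts to all M21 transcripts. The alternatives changed the normalization, the filter or the thresholds, used DESeq2 1.42.0, put a fold change of 2 inside the test, left the other groups out of the fit, thinned the counts to the lowest depth, added a replicate block, or left out a sample. The test was checked on simulated counts. Flow cytometry and qPCR were not analysed here, and some results that fall under the rule for named genes are not reported here.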

Additional observations from a re-analysis of the deposited data

Results flagged for a closer look

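The test of the difference itself marked the effect of IFNα as larger in fold with CpG than without for Uba7, with an interaction of 1.57 on the log2 scale (95% interval 0.90 to 2.24, adjusted p = 0.00149 by edgeR). Uba7 rose by 1.05 on the log2 scale with IFNα and by 2.63 with IFNα on top of CpG. Its mean went from 67.7 to 139 normalized CPM with IFNα, and from 5.64 with CpG to 34.3 with both. The same test marked Isg15, with an interaction of 1.06 (95% interval 0.29 to 1.83, adjusted p = 0.0737), from 5.06 and 6.12. The mean of Isg15 went from 17.5 to 603 normalized CPM with IFNα, and from 7.59 with CpG to 545 with both.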

How the results depend on the processing

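The number of the 5 genes called was the same or nearly so under most alternatives. It was unchanged in 17 of 24 alternatives for IFNα against unstimulated cells, 17 of 24 for CpG against unstimulated, 19 of 24 for CpG + IFNα against unstimulated, 22 of 24 for CpG + IFNα against CpG, 22 of 24 for CpG + IFNα against IFNα and 23 of 24 for IFNα against CpG. For the interaction it was unchanged in 13 of 23. With each sample left out, the numbers called were 4 to 5, 3 to 5, 3 to 4, 5, 3 and 5 in the first 6 comparisons, and 1 to 2 in the interaction. The interaction had 0 genes called with a fold change of 2 inside the test, 0 with a log2 fold change over 2, and 1 (Uba7) with an adjusted p under 0.05 or with counts thinned to the lowest depth. With a log2 fold change over 2, CpG against unstimulated had 2 (Uba7 and Ube2l6). Uba7 with IFNα also lost its call with library size only (log2 fold change 0.97) and upper-quartile factors (0.99).

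Values that changed sign were all small and not called. Ube2l6 in CpG + IFNα against unstimulated was -0.12 with thinned counts. The interaction of Herc6 ran from -0.16 to 0.24 when a sample was left out, and was -0.16 without unstimulated replicate 3, 0 without IFNα replicate 3, -0.06 without CpG replicate 1 and -0.08 without CpG + IFNα replicate 3, and that of Ube2l6 was -0.13 and -0.05 without CpG replicates 1 and 2 and 2.91 without CpG replicate 3. The cause was not tested. Ube2l6 had no value under the stricter filter, since too few samples reached 10 counts. It also had none when only the groups compared were fitted and IFNα alone was not 1 of them. Its depth limits all statements on CpG.

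Over all genes, 430 higher and 384 lower calls with IFNα became 208 and 116 with the fold change inside the test and 161 and 90 with a log2 fold change over 2. For CpG + IFNα against CpG, 278 and 190 became 177 and 18, and 150 and 15. For the interaction, 291 and 299 became 63 and 35, and 96 and 59, and DESeq2 called 193 lower. With a log2 fold change over 2, CpG against unstimulated had 539 and 1138 (1898 and 2405), CpG + IFNα against unstimulated 604 and 1222 (1916 and 2413), CpG + IFNα against IFNα 536 and 1162 (1767 and 2408) and IFNα against CpG 1128 and 520 (2330 and 1826).

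With the replicate number as a block, the numbers called were 5, 4, 3, 5, 3, 5 and 2, the same as without it. Deviations of same-numbered samples from their group means had r from -0.065 to 0.201, over 0.1 in 5 of 18 pairs, against 0 of 36 pairs with other numbers. All 5 lay among the 9 pairs of stimulated groups, in which r was above 0 throughout, and none among the 9 pairs with unstimulated samples. A deposited list of barcodes names samples WT with a number and does not say whether a number is a mouse, so the numbers were not taken to pair the samples.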

Other observations

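The genes next to Isg15 and Uba7 were looked at after their values were seen. AW011738, which starts on the other side of Isg15 and is read away from it, held 8 counts in the 3 unstimulated samples together and 59 with IFNα, against 3 with CpG and 70 when both were given. Like Isg15, its raw counts were high in both groups with IFNα. Inka1, next to the 3′ end of Uba7 and on the opposite strand, held 16, 133, 27 and 38 counts in the same order of groups. These values were not tested here as results of their own.
Ddx58, the RNA sensor RIG-I and a reported ISG15 substrate, was the 1 gene of its list of 15 whose interaction was called (1.39 ± 0.27 on the log2 scale, adjusted p = 0.000785). Of all genes tested, 3.09% were called upwards and 3.17% downwards, so that 1 of 15 is near the background and says nothing of the list. Ddx58 was chosen after its values were seen.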
